A study of Arabidopsis thaliana with 18 samples.

Results

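The clade A AHL genes are one branch of the AT-HOOK MOTIF NUCLEAR LOCALIZED family of Arabidopsis thaliana, and 10 of them, SOB3 included, were followed here among the 24953 genes (32811 transcripts) of the deposited tables. They were taken by locus: AT1G76500 (AHL29, SOB3), AT1G20900 (AHL27, ESC for ESCAROLA), AT3G55560 (AHL15), AT3G60870 (AHL18), AT3G04570 (AHL19), AT4G14465 (AHL20), AT2G45430 (AHL22), AT4G17800 (AHL23), AT4G22810 (AHL24) and AT4G35390 (AHL25). Each locus had 1 transcript in every table. Poly(A) RNA of whole Col-0 seedlings was sequenced in 6 groups of 3 biological replicates, 18 libraries in all. The seedlings grew in short days of 8 h light and 16 h dark. The groups were sob3-6 and SOB3-D at ZT4 (4 h after lights on, 5 days old), at ZT9 (1 h into the night, 5 days old) and at ZT24 (the end of the night, 6 days old). SOB3-D is a dominant line from activation tagging in which SOB3 is overexpressed. The sob3-6 allele carries a missense change in the AT-hook of SOB3 within that same SOB3-D background, so both genotypes hold the activation-tagged copy. Each genotype is 1 line, each sample pooled whole seedlings, and no wild type library was used here, so the amount of SOB3 above the wild type level was not measured.

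AHL proteins pair an AT-hook, a short motif that enters the minor groove of AT-rich DNA, with a PPC domain through which they bind one another and other transcription factors. In seedlings the family is known for holding back hypocotyl elongation in the light, with much overlap between members. A protein that keeps its PPC domain but has a damaged AT-hook is described as dominant-negative, because it joins complexes that no longer hold DNA.

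The coding windows around the AT-hook are shown because the lesion of sob3-6 lies in this motif and because they show how far the members' transcripts differ in letters. Each window is 48 bases of the coding strand of the reference genome (TAIR10.1, RefSeq), 5′ to 3′, with the codons of the arginine-glycine-arginine-proline core in capitals. The sob3-6 change itself is not shown.
AHL29 (SOB3): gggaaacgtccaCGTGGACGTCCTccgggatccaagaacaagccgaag
AHL27 (ESC): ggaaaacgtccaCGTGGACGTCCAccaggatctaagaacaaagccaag
AHL19: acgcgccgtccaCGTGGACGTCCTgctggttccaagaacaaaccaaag
AHL15: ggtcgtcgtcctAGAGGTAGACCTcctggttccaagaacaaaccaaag
AHL20: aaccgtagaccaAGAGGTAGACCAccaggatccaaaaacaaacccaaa
The SOB3 window lies on chromosome 1 at 28705742 to 28705789, plus strand, in the single exon of the gene, and its core begins at codon 75 of 302. The ESC window, on chromosome 1 at 7273276 to 7273323, differs from it at 7 of 48 bases. The AHL20 window, on chromosome 4 at 8321167 to 8321214, differs at 19 bases, 6 of them in the core, and still encodes the same residue at 14 of 16 codons. The AHL19 window (chromosome 3, 1231455 to 1231502, plus strand) has the core letters of SOB3 exactly, and the AHL15 window (chromosome 3, 20605531 to 20605578, minus strand) differs at 5 of the core bases.

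All 10 genes encode 1 such core and, except for AHL15 with 2 exons, have 1 exon. The protein encoded by ESC is 70.6% identical to that of SOB3, and those of the other 8 members are 40.7% (AHL18) to 46.8% (AHL19) identical. No stretch of 84 bases, the shorter of the read lengths used, occurs both in one of these transcripts and in any other gene's transcript. The closest 84-base stretches of ESC and SOB3 differ at 12 bases, and those of AHL20 and SOB3 at 27. Where reads of one member mapped among the others was not tested.

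Libraries held 6012747 to 11076919 mapped reads. Values are in CPM, read counts scaled to the mapped reads of each library, in which a read with several equally good hits was counted at each, and 1 read was worth 0.0903 to 0.166 CPM depending on the library. Each library was scaled to its own mapped reads, which does not correct for differences in RNA composition between libraries. Factors of TMM, a rescaling for composition, were 0.929 to 1.08. Levels are set beside each other across the 3 tables within that limit. Leaf markers were high in every library (summed RBCS1A, LHCB1.1 and CA1 of 14032 to 23994 CPM in sob3-6 and 16436 to 25158 CPM in SOB3-D), and root markers were present (72.2 to 97.0 CPM in sob3-6 and 70.2 to 109 CPM in SOB3-D), as whole seedlings hold. Among the leaf markers CA1, a carbonic anhydrase, was lower in sob3-6 at ZT9 (log2 difference -1.06, adjusted p = 0.00715) and higher at ZT24 (0.81, adjusted p = 0.00248), and no other leaf marker and no root marker was called between genotypes. Of the meristem markers, WUS, which defines the stem cell niche, was at or under 0.166 CPM in every library, STM was not called between genotypes, and KNAT1 was higher in sob3-6 at each time point, by 1.1 to 1.31 on the log2 scale. The summed meristem markers were 51.7 to 74.1 CPM in sob3-6 and 20.3 to 36.1 CPM in SOB3-D. Nearly all of this sum was KNAT1, with group means of 51.3 to 65.4 CPM in sob3-6 and 20.6 to 29.7 CPM in SOB3-D. The difference in the sum is therefore mainly that of KNAT1. The part of this difference in the results below was not tested, and in whole seedlings more cells of a type and more RNA per cell cannot be told apart.

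SOB3 was the most abundant member in every group. Its reads were 1011 to 2880 per library, against 26 to 491 for the 8 members between it and AHL18. To compare genes, CPM was divided by the length of the transcript model in kilobases. On this scale SOB3 stood at 141 ± 14.2, 140 ± 3.27 and 186 ± 5.31 CPM per kilobase in sob3-6 at ZT4, ZT9 and ZT24, and at 103 ± 6.79, 83.6 ± 6.96 and 127 ± 7.86 CPM per kilobase in SOB3-D (SD, n = 3 in each group). It made up 61.1% ± 1.86, 61.6% ± 4.47 and 61.0% ± 2.36 of the summed 10 members in sob3-6 at the 3 time points, and 57.0% ± 1.06, 50.3% ± 2.30 and 53.5% ± 1.25 in SOB3-D.

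The runner-up changed with the group. It was ESC at ZT4 in sob3-6 (15 ± 1.77 CPM per kilobase) and at ZT4 and ZT9 in SOB3-D (13.1 ± 1.22 and 14.7 ± 1.65). It was AHL15 at ZT9 in sob3-6 (15.6 ± 1.66), AHL20 at ZT24 in sob3-6 (28.2 ± 4.95) and AHL23 at ZT24 in SOB3-D (18.5 ± 1.18). Other than AHL20 in sob3-6 at ZT24, which stood above ESC (18.7 ± 1.72) by more than the spread of either, the runner-up and the next member in the order had overlapping ranges of mean ± SD. SOB3 exceeded the runner-up by 5.78 ± 1.05 times (SOB3-D at ZT9) to 9.41 ± 0.40 times (sob3-6 at ZT4). At the low end the order was the same in all 6 groups in its last places, AHL25 (3.02 to 5.36 CPM per kilobase) above AHL18 (0.331 to 0.719 CPM per kilobase), with AHL24 next above AHL25 in 5 of the 6. The exception was SOB3-D at ZT9, where AHL20 (6.79 ± 1.38) lay below AHL24 (7.50 ± 1.25) within their spread.

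**Figure D1:**
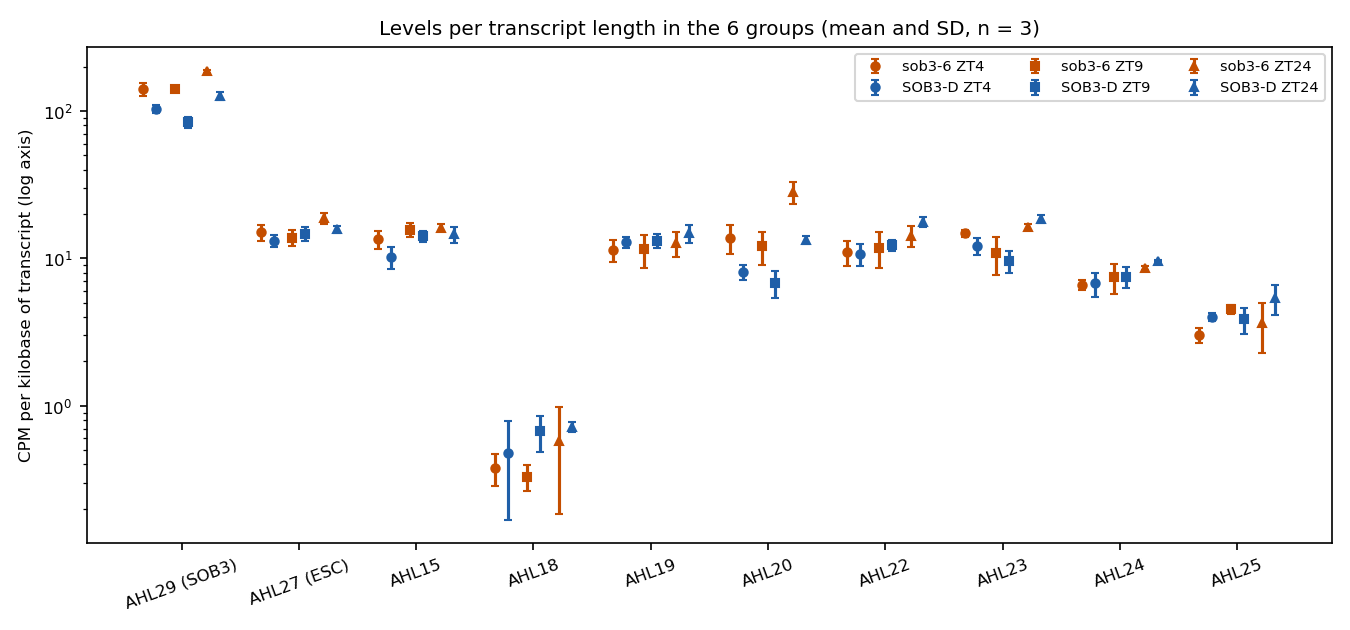
Mean level of each member in CPM per kilobase of transcript model (log axis), by group, with SD over 3 libraries; sob3-6 in orange, SOB3-D in blue, and circles, squares and triangles for ZT4, ZT9 and ZT24. SOB3 lies at 83.6 to 186, most members between 3 and 28.2, and AHL18 below 1.

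SOB3 itself and AHL20 differed between the genotypes at all 3 time points and both were higher in sob3-6. The other 8 members did not pass the test at any time point. That is 2 of 10 members called at ZT4, at ZT9 and at ZT24, where 6.67%, 10.2% and 7.07% of all transcripts tested were called (limma on log2(CPM + 0.5), two-sided, adjusted p under 0.05 by Benjamini-Hochberg over all transcripts). All 10 members passed the filter of a mean of 0.5 CPM. The median log2 difference of the 10 members was 0.12, 0.06 and -0.16 at the 3 time points, beside 0.04, 0.03 and 0.01 over all transcripts tested.

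SOB3 encodes the repressor of hypocotyl growth that carries the sob3-6 lesion. At ZT4 it was measured at 272, 227 and 231 CPM in the sob3-6 libraries, against 191, 177 and 168 CPM in SOB3-D. At ZT9 it was at 242, 237 and 248 CPM in sob3-6, against 157, 144 and 133 CPM in SOB3-D. At ZT24 it was at 317, 331 and 314 CPM in sob3-6, against 211, 235 and 212 CPM in SOB3-D. The groups did not overlap at any of the time points, and every sob3-6 library lay above the SOB3-D library of its own replicate number. How many of all transcripts lay apart in this way was not counted, so the separation is description only. The log2 differences were 0.44 ± 0.10 at ZT4 (SE, adjusted p = 0.0395), 0.75 ± 0.09 at ZT9 (adjusted p = 0.00167) and 0.55 ± 0.07 at ZT24 (adjusted p = 0.00182). In ratios of means SOB3 was 1.36, 1.68 and 1.46 times higher in sob3-6. Whether the base change of sob3-6 alters how reads map to the SOB3 reference was not tested, since the tables hold no reads. The calls at ZT9 and ZT24 held in all alternatives. The call at ZT4 was lost without the filter on low values, with TMM rescaling and with edgeR (adjusted p up to 0.0797), and on leaving out 1 of 4 libraries: sob3-6 replicate 1 or 2, or SOB3-D replicate 2 or 3 (adjusted p up to 0.158). With a replicate block, which pairs the genotypes by plate, the ZT4 call held (limma, adjusted p = 0.0155).

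AHL20, a member that delays flowering and dampens basal defence when overexpressed, had a larger estimate than SOB3 at each time point. At ZT9 the 2 were equal within error (SOB3 0.75 ± 0.09, SE), and they were not tested against each other. At ZT4 it was at 29.4, 26.5 and 18.8 CPM in sob3-6, against 15.3, 15.9 and 12.6 CPM in SOB3-D. At ZT9 it was at 26.9, 23.2 and 15.9 CPM in sob3-6, against 14.4, 13.1 and 9.53 CPM in SOB3-D. At ZT24 it was at 54.6, 57.8 and 40.9 CPM in sob3-6, against 23.1, 23.9 and 25.9 CPM in SOB3-D. The groups did not overlap at any time point, which is description only, as for SOB3. Replicate 3 was the lowest of the sob3-6 libraries each time, and the lowest of the SOB3-D libraries at ZT4 and ZT9. The log2 differences were 0.73 ± 0.17 (SE, adjusted p = 0.0409), 0.80 ± 0.21 (adjusted p = 0.0465) and 1.04 ± 0.13 (adjusted p = 0.00219) at ZT4, ZT9 and ZT24, and the ratios of means 1.70, 1.79 and 2.10. The ZT24 call held in all alternatives. The calls at ZT4 and ZT9 were lost without the filter on low values (adjusted p up to 0.126 and 0.147), the one at ZT9 also with 1 transcript per gene. Each was lost on leaving out any library of its time point other than sob3-6 replicate 3 (adjusted p up to 0.142 and 0.161). Those fits did not pair the genotypes. With the replicate block both calls held (limma, adjusted p = 0.00698 at ZT4 and 0.00179 at ZT9).

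**Figure D2:**
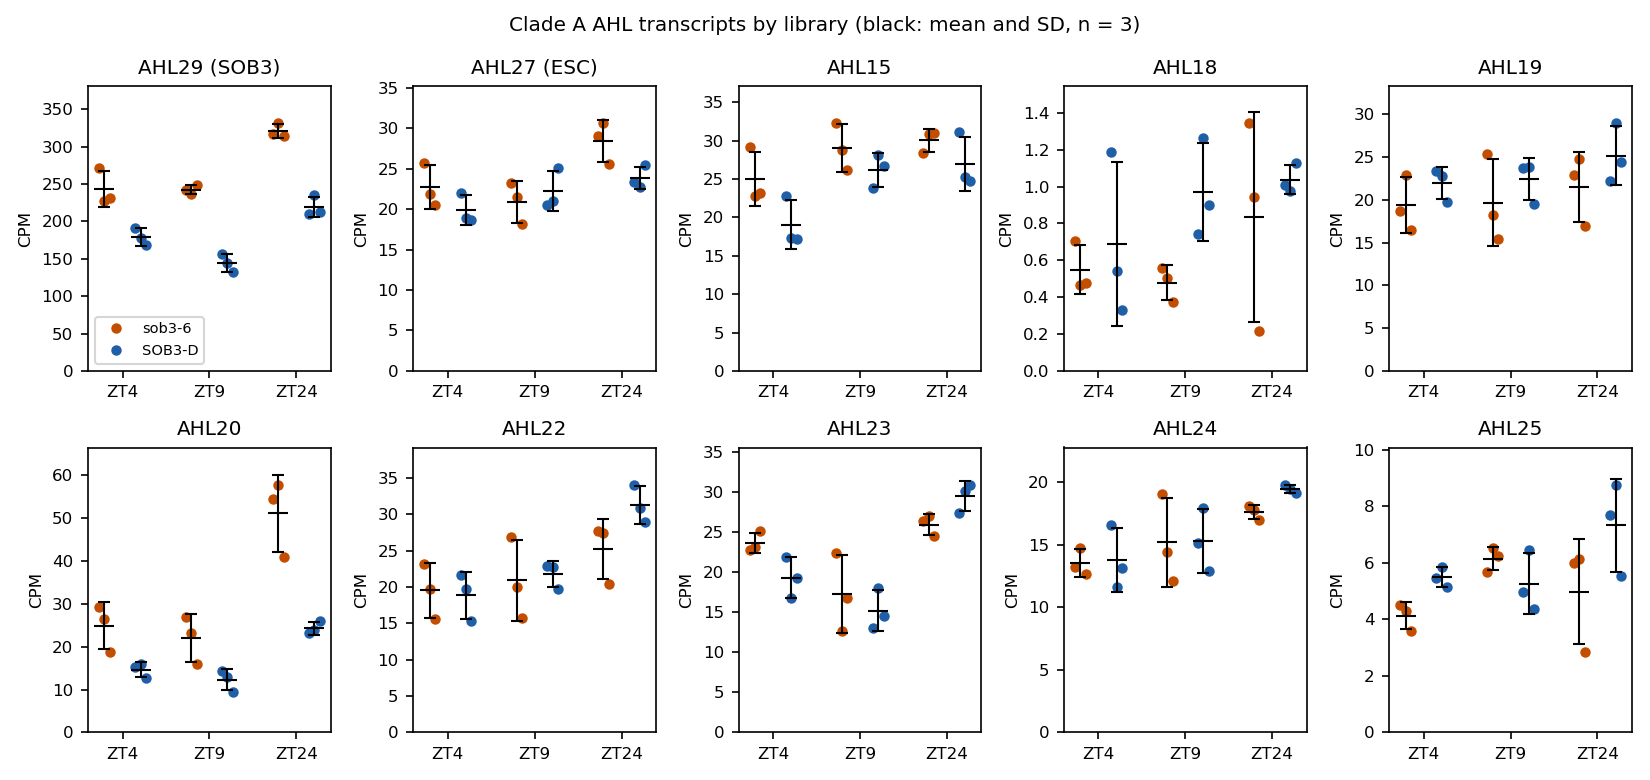
Level of each member in CPM (linear axis from 0) in every library, with sob3-6 (orange) left of SOB3-D (blue) at each time point; points run from replicate 1 to 3, and black bars give the mean and SD of 3 libraries. SOB3 and AHL20 are the panels in which the sob3-6 libraries lie above all SOB3-D libraries at ZT4, ZT9 and ZT24. The share of all transcripts separated in this way was not counted.

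The 250 bases before the annotated start of AHL20 (chromosome 4, 8320288 to 8320537, plus strand, TAIR10.1) are shown because this member differed between the genotypes without being the tagged gene, with its AATATT in capitals.
AHL20: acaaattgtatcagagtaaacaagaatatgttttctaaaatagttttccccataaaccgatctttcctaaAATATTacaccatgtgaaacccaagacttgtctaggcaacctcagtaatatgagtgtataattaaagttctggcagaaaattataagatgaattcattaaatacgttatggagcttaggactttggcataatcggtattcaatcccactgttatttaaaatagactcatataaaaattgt
This window is 69.6% A and T, near the median of 68.4% over 27443 nuclear promoters of the same length. The 3 motifs searched, on both strands, were the AT-rich AATATT, the G-box CACGTG to which PIF factors bind, and GGNCCA of TCP factors, which share no letters in their matches. AATATT occurred upstream of AHL19, AHL20 and AHL22 and in 29.5% of all promoters. GGNCCA occurred upstream of AHL15 and AHL24 and in 22.7% of all promoters. CACGTG occurred upstream of none of the 10 and in 6.57% of all promoters.

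ESC, which acts beside SOB3 in repressing hypocotyl growth and is the member most like it in sequence, did not pass the test. Its means in sob3-6 were 22.7 ± 2.69, 20.9 ± 2.59 and 28.4 ± 2.61 CPM at ZT4, ZT9 and ZT24, and in SOB3-D 19.9 ± 1.85, 22.2 ± 2.50 and 23.8 ± 1.39 CPM (SD, n = 3). Its log2 differences between genotypes were 0.19 ± 0.13, -0.09 ± 0.13 and 0.25 ± 0.10 (SE), with adjusted p of 0.431, 0.746 and 0.19. At ZT24 the ESC libraries did not overlap, at 25.5 to 30.6 CPM in sob3-6 and 22.8 to 25.4 CPM in SOB3-D. The share of all transcripts whose libraries lay apart in this way was not counted, between genotypes or between time points. Separation of an uncalled member, here and in the members below, is therefore not read as a difference between genotypes. For SOB3 and AHL20 it adds nothing to the test.

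AHL15 and AHL25 are also known as factors that bind the promoter of the gibberellin synthesis gene GA3OX1. AHL15 had log2 differences of 0.39 ± 0.15, 0.14 ± 0.12 and 0.16 ± 0.11 (SE) at ZT4, ZT9 and ZT24, with adjusted p of 0.173, 0.501 and 0.437. AHL25, at 2.84 to 8.77 CPM in all libraries, had log2 differences of -0.38 ± 0.17, 0.22 ± 0.18 and -0.56 ± 0.28, with adjusted p of 0.226, 0.515 and 0.298. At ZT4 the AHL25 libraries did not overlap, at 3.59 to 4.50 CPM in sob3-6 and 5.16 to 5.87 CPM in SOB3-D. AHL25 had 26 to 72 reads per library, so its estimates are less precise than those of SOB3.

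AHL22, a repressor of flowering that acts at FT, had log2 differences of 0.05 ± 0.17, -0.09 ± 0.18 and -0.32 ± 0.13 (SE; adjusted p of 0.909, 0.821 and 0.197). AHL19, linked to defence against Verticillium, had -0.19 ± 0.14, -0.21 ± 0.18 and -0.23 ± 0.16 (adjusted p of 0.487, 0.534 and 0.441). At ZT24 the AHL22 libraries lay apart, at 20.4 to 27.7 CPM in sob3-6 and 28.9 to 34.1 CPM in SOB3-D, while those of AHL19 overlapped at every time point.

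AHL23 had log2 differences of 0.29 ± 0.12, 0.15 ± 0.21 and -0.18 ± 0.09 (SE; adjusted p of 0.21, 0.712 and 0.283), so its sign at ZT24 was opposite to that at ZT4, with no call at either. Its libraries did not overlap at ZT4 (22.8 to 25.1 CPM in sob3-6, 16.8 to 21.9 CPM in SOB3-D) or at ZT24 (24.5 to 27 CPM in sob3-6, 27.4 to 31.0 CPM in SOB3-D). AHL24 had -0.01 ± 0.15, -0.02 ± 0.19 and -0.14 ± 0.09 (adjusted p of 0.972, 0.962 and 0.415), and at ZT24 its libraries lay apart, at 17.0 to 18.1 CPM in sob3-6 and 19.2 to 19.8 CPM in SOB3-D. AHL18, with 2 to 13 reads per library, lay close to the floor of 3 reads, and its log2 differences of -0.12 ± 0.34, -0.58 ± 0.29 and -0.31 ± 0.36 (adjusted p of 0.874, 0.254 and 0.675) could not be told from 0 at this depth. At ZT9 its libraries did not overlap, at 0.375 to 0.558 CPM in sob3-6 and 0.743 to 1.26 CPM in SOB3-D, which is 3 to 5 reads and 6 to 9 reads. Summed over the 9 members other than SOB3, the level was 89.5 ± 8.94, 88.0 ± 16.1 and 119 ± 13.8 CPM per kilobase in sob3-6, and 78.3 ± 8.55, 82.5 ± 5.56 and 110 ± 1.59 CPM per kilobase in SOB3-D (SD, n = 3), and the ranges of mean ± SD of the genotypes overlapped at each time point.

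**Figure D3:**
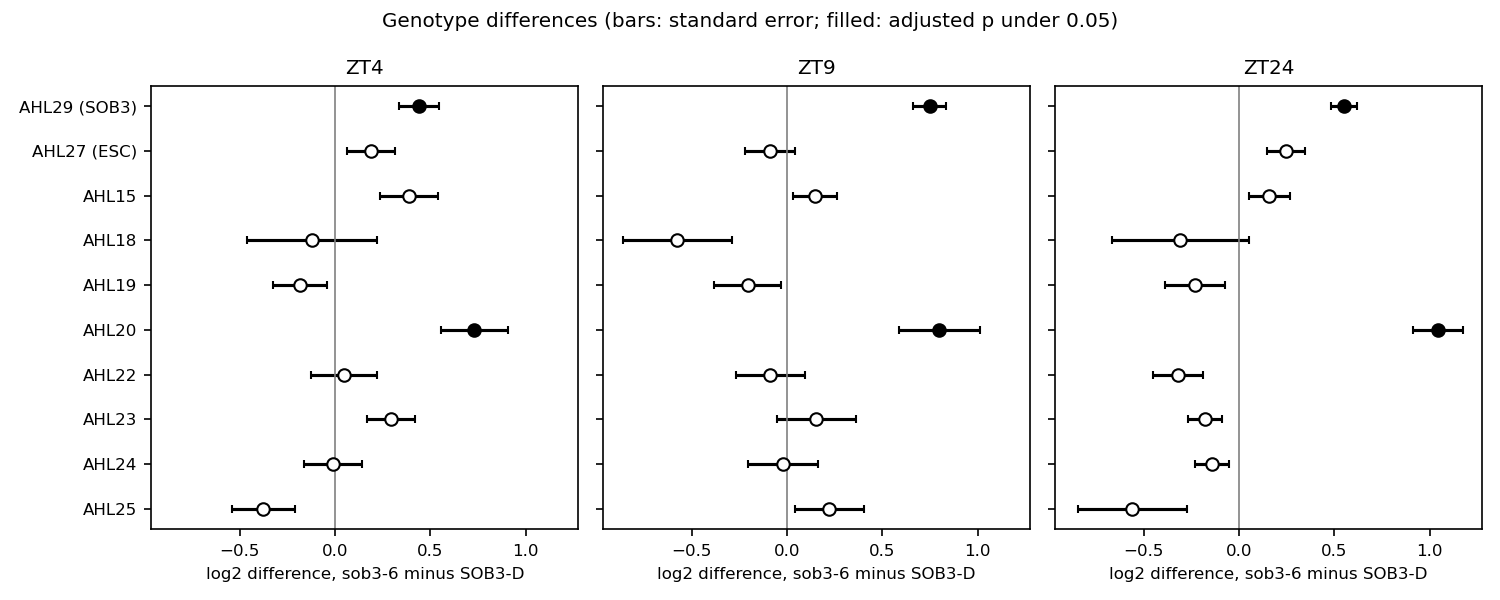
Log2 difference of each member, sob3-6 minus SOB3-D, at ZT4, ZT9 and ZT24, with the standard error from limma; filled points have an adjusted p under 0.05. SOB3 (0.44, 0.75 and 0.55) and AHL20 (0.73, 0.80 and 1.04) are filled in each panel, and the other 8 members are open.

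Most calls over time among the members were in contrasts with ZT24, which are also most of the time contrasts made. Between ZT9 and ZT24, that is over the night, 4 of 10 members rose in sob3-6 (26.7% of all transcripts tested were called) and 4 of 10 in SOB3-D (38.2%), and none fell. Between ZT4 and ZT24, 2 of 10 rose in sob3-6 (26.3%) and 6 of 10 in SOB3-D (38.8%), and none fell. Between ZT4 and ZT9 there was 1 call in sob3-6 (26.5%) and 2 in SOB3-D (34.7%). These shares count both directions. Of 28215 transcripts, 3611 were called higher and 3912 lower at ZT24 than at ZT9 in sob3-6, and 5405 and 5381 in SOB3-D. For ZT24 against ZT4 the numbers were 4440 and 2970 in sob3-6, and 6582 and 4365 in SOB3-D. Whether the members' counts exceed these shares was not tested. The medians of the 10 members for ZT24 against ZT9 were 0.32 in sob3-6 and 0.39 in SOB3-D, beside -0.01 and 0.03 over all transcripts. ZT24 seedlings were labelled 6 days old and the others 5 days old, so time of day and age cannot be told apart in contrasts with ZT24.

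AHL20 rose over the night in both genotypes. In sob3-6 its difference was the largest of the 10 members, and in SOB3-D it was equal within error to that of AHL23 (0.94 ± 0.16, SE). Its log2 difference for ZT24 against ZT9 was 1.22 ± 0.20 in sob3-6 (SE, adjusted p = 0.000133) and 0.97 ± 0.20 in SOB3-D (adjusted p = 0.000786). For ZT24 against ZT4 it was 1.03 ± 0.20 in sob3-6 (adjusted p = 0.000766) and 0.72 ± 0.20 in SOB3-D (adjusted p = 0.00789). Within each genotype the ZT24 libraries lay above all libraries of the earlier times.

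SOB3 also rose over the night, by 0.40 ± 0.08 in sob3-6 (SE, adjusted p = 0.00124) and by 0.60 ± 0.08 in SOB3-D (adjusted p = 1.66e-05) on the log2 scale. From its ZT4 level it was lower at ZT9 in SOB3-D, with a log2 difference of -0.31 ± 0.08 (adjusted p = 0.00799). In sob3-6 the ZT4 and ZT9 means were 243 ± 24.6 and 243 ± 5.65 CPM, and that contrast did not pass. For ZT24 against ZT4 it was higher by 0.40 ± 0.08 in sob3-6 (adjusted p = 0.00141) and by 0.29 ± 0.08 in SOB3-D (adjusted p = 0.00984). This last call in SOB3-D was lost with TMM rescaling and with edgeR, and without SOB3-D ZT4 replicate 3 or SOB3-D ZT24 replicate 2.

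AHL23 rose over the night in both genotypes and was lower at ZT9 than at ZT4 in sob3-6. It was at 22.8, 23.2 and 25.1 CPM at ZT4, at 22.4, 12.7 and 16.7 CPM at ZT9 and at 26.4, 27 and 24.5 CPM at ZT24 in sob3-6. In SOB3-D it was at 21.9, 16.8 and 19.3 CPM at ZT4, at 13.0, 18.1 and 14.5 CPM at ZT9 and at 27.4, 30.2 and 31.0 CPM at ZT24. The rise over the night was 0.61 ± 0.16 in sob3-6 (SE, adjusted p = 0.00792) and 0.94 ± 0.16 in SOB3-D (adjusted p = 0.000131). The ZT9 level was below that of ZT4 in sob3-6 by a log2 difference of -0.48 ± 0.16 (adjusted p = 0.0345), a call kept only on leaving out sob3-6 ZT9 replicate 1 among the 6 libraries concerned. All 3 of these ZT9 libraries lay below the ZT4 libraries, replicate 1 only just. In SOB3-D the same contrast did not pass (-0.34 ± 0.16, adjusted p = 0.114), and the libraries of ZT9 and ZT4 overlapped. It did pass with DESeq2 (adjusted p = 0.0466) and, with limma, without SOB3-D ZT9 replicate 2 (adjusted p = 0.0484). In SOB3-D, ZT24 exceeded ZT4 by 0.60 ± 0.16 (adjusted p = 0.00583). The night rise in sob3-6 was lost without sob3-6 ZT9 replicate 2 (adjusted p = 0.0589).

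AHL22, AHL15 and AHL24 were called over time in SOB3-D, and ESC in sob3-6. AHL22 was at 21.6, 19.7 and 15.3 CPM at ZT4, at 22.9, 22.7 and 19.7 CPM at ZT9 and at 34.1, 30.9 and 28.9 CPM at ZT24 in SOB3-D. Its ZT24 libraries lay above all others of that genotype, by 0.51 ± 0.18 against ZT9 (SE, adjusted p = 0.0342) and by 0.73 ± 0.18 against ZT4 (adjusted p = 0.00405). The contrast with ZT9 was lost on leaving out any library but SOB3-D ZT24 replicate 3 (adjusted p up to 0.113). AHL15 in SOB3-D was already higher at ZT9 than at ZT4, by 0.46 ± 0.13 (adjusted p = 0.0112, lost without SOB3-D ZT4 replicate 2 or 3), and at ZT24 by 0.50 ± 0.13 (adjusted p = 0.0056). AHL24 in SOB3-D was higher at ZT24 than at ZT4 by 0.50 ± 0.15 (adjusted p = 0.0161, lost without SOB3-D ZT4 replicate 2 or 3). ESC in sob3-6 was higher at ZT24 than at ZT9 by 0.44 ± 0.12 (adjusted p = 0.0104, lost without sob3-6 ZT9 replicate 3 or sob3-6 ZT24 replicate 2). AHL18, AHL19 and AHL25 passed no time contrast in either genotype.

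**Figure D4:**
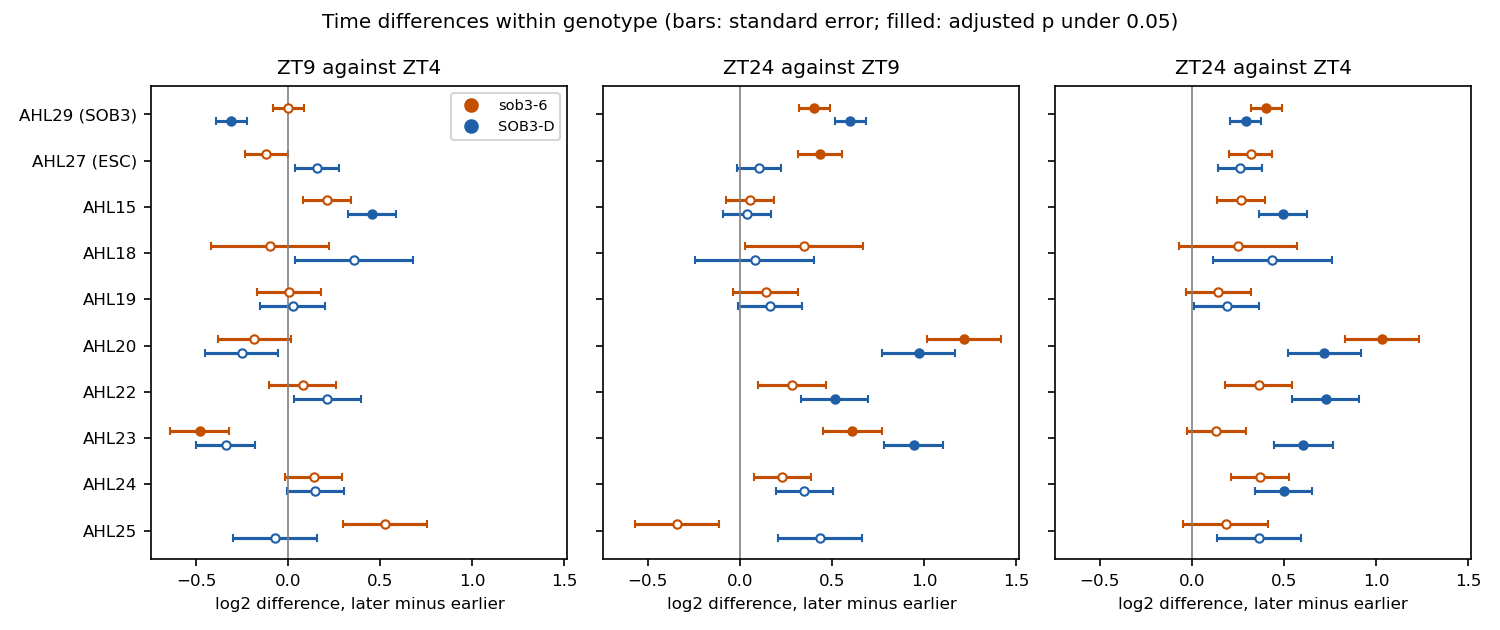
Log2 difference of each member between time points (later minus earlier) in sob3-6 (orange, upper) and SOB3-D (blue, lower), with the standard error from limma; filled points have an adjusted p under 0.05. AHL20 (1.22 and 0.97) and AHL23 (0.61 and 0.94) have the largest differences for ZT24 against ZT9.

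No member's change over time was shown to differ between the genotypes. Tested as an interaction in the fit of 18 libraries, 0 of 10 members passed for ZT9 against ZT4, for ZT24 against ZT9 and for ZT24 against ZT4, where 1.5%, 4.17% and 3.04% of all transcripts were called. At an unadjusted p under 0.05 limma gave 1, 1 and 0 members, edgeR 1, 2 and 1, and DESeq2 1, 1 and 0. The lowest adjusted p in each contrast was 0.294 for SOB3 (0.31 ± 0.12, SE), 0.229 for AHL25 (-0.78 ± 0.32) and 0.327 for AHL23 (-0.47 ± 0.23). A call in one genotype and not in the other, as for AHL22 or AHL15, is therefore not a shown difference between them.

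The 5 clade A genes that were not among the 10, AHL16, AHL17, AHL21, AHL26 and AHL28, also had no call between genotypes (0 of 5 at each time point, medians of -0.19, 0.06 and -0.13). Over all transcripts tested, 6.67%, 10.2% and 7.07% were called between genotypes at ZT4, ZT9 and ZT24. One of them, AHL17, rose over the night by 1.45 ± 0.27 in sob3-6 (SE, adjusted p = 0.000561) and by 1.55 ± 0.27 in SOB3-D (adjusted p = 0.000200). Among 14 genes of clade B, whose AT-hook differs in type, 1, 4 and 3 were called between genotypes at ZT4, ZT9 and ZT24, in both directions. AHL10 was higher in sob3-6 at each time point by 0.50, 0.79 and 0.67 on the log2 scale, and AHL11 at ZT9 by 0.55. Lower in sob3-6 were AHL2 at ZT9 (-1.01), AHL1 at ZT9 and ZT24 (-0.61 and -0.53) and AHL6 at ZT24 (-0.59).

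AHL proteins work with TCP factors and histone deacetylases. None of 6 such partner genes (TCP4, TCP13, TCP14, HDA6, HDA9 and HDA19) was called between genotypes at any time point. The shares of all transcripts called were 6.67%, 10.2% and 7.07% at ZT4, ZT9 and ZT24. Of 8 genes described as AHL targets, 7 were tested, since FT, the florigen gene, was at or under 0.502 CPM in every library. In sob3-6, 4 were higher and 0 lower at ZT4, 4 higher and 1 lower at ZT9, and 6 higher and 1 lower at ZT24, beside the same shares of all transcripts. YUC8, an auxin synthesis gene, was higher in sob3-6 by 1.65, 1.68 and 2.17 on the log2 scale, and ACS8, an ethylene synthesis gene, by 1.83, 2.15 and 3.02. GA3OX1 was the lower one, by a log2 difference of -0.74 at ZT9 and -0.67 at ZT24. This list was drawn up with the study's literature and earlier results of these data at hand, so its direction is not independent evidence.

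The genes whose levels ran most closely with each member were found by Pearson's r of log2(CPM + 0.5) over the 18 libraries among 15968 nuclear genes outside the family with a mean of at least 5 CPM. These values describe 6 groups of libraries that share genotype and time, and carry no test. For SOB3 they were PUP11, of the purine permease family (r = 0.96), AT3G21330 (0.95) and ELI3-1 (0.95). For AHL20 they were ADC2, an arginine decarboxylase of polyamine synthesis (0.96), IBH1, a bHLH repressor of cell elongation (0.94), and AT3G44610 (0.93). ESC ran with ATG12A, of the autophagy machinery (0.91), AT3G61200 (0.87) and SIP2;1 (0.85). AHL22 ran with ARF10, an auxin response factor (0.94), AT1G69510 (0.94) and UGT75B1 (0.93). AHL24 ran with AT5G58410 (0.94), AT5G44090 (0.93) and NAC102 (0.92). AHL15 ran with AT5G60700 (0.93), AT3G49800 (0.91) and AT2G17110 (0.91). AHL23 ran with KUP10, of a potassium transporter family (0.92), AT2G25590 (0.92) and AT5G56980 (0.91). AHL19 ran with MSL9, a mechanosensitive channel (0.92), AT2G25980 (0.90) and ROC5 (0.89). AHL25, of lower depth, had the weakest likenesses, to AT3G13780 (0.84), WRKY23 (0.82) and AT4G33130 (0.79). Within the 10 members, SOB3 and AHL20 were the closest pair (r = 0.91), followed by AHL22 and AHL24 (0.85).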

How the data were processed

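The authors mapped single reads of stranded mRNA libraries to TAIR10 cDNA with Bowtie, keeping all best hits, counted reads per transcript and divided by the mapped reads of each library. The deposited signal is this CPM, and it sums to 1546178 to 1573550 per library because reads with several hits counted at each. Whether strand was used is not given in the sources used here. Every value was a whole multiple of 1 step per library (100% within 0.01 read), which gave reads per transcript. The floor of 3 reads covers counting error only, and the SD and SE given measure the spread between libraries.

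Transcripts averaging 0.5 CPM or more were tested on log2(CPM + 0.5) with limma 3.58.1 in R 4.3.3 (moderated, mean trend, two-sided, Benjamini-Hochberg over all transcripts), which understates changes of low genes. Genotypes were compared in a fit of 6 libraries per time point, and times and interactions in a fit of all 18 libraries. On simulated data with 200 changed transcripts among 28224, the ZT9 genotype fit recovered 181, with 13 false calls. For an interaction (ZT9 against ZT4, 28218 transcripts) the fit of 18 simulated libraries recovered 90. Recovery of differences as small as those of the uncalled members, or at levels as low as that of AHL18, was not tested. Alternatives were other pseudocounts (0.1 and 1) and filters, TMM rescaling, edgeR 4.0.16 and DESeq2 1.42.0 on the recovered reads, a replicate block, 1 transcript per gene, 1 fit of all libraries and leaving out each library. Replicates were grown on different plates, with both genotypes of a replicate set from the same plates, so the numbers pair the genotypes (same-number r of deviations 0.094 to 0.319, different-number r -0.225 to 0.109). The p-values judge a difference against the spread between these libraries, which in the main fit includes differences between plates.

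All 10 members are named, with time contrasts for those past the threshold. The likeness rule took the 3 closest genes of each member with a mean of at least 5 CPM. The members and gene lists were chosen with earlier results of these data known. Gene models and sequences came from RefSeq TAIR10.1, whose nuclear chromosomes are those of TAIR10. Tables were handled with Python 3.11.15 and Biopython 1.88.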

Additional observations from a re-analysis of the deposited data

How the results depend on the processing

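The count of members called between genotypes at ZT24 stayed at 2 under every alternative, and the interaction counts stayed at 0. At ZT4 the count was 0 without the filter on low values, 1 with TMM rescaling and 1 with edgeR, and leaving out 1 library gave 0 to 2. At ZT9 it was 1 without the filter and 1 with 1 transcript per gene, and leaving out 1 library gave 1 to 2. In SOB3-D, leaving out 1 library gave 1 to 3 calls for ZT9 against ZT4, and in sob3-6 0 to 1. In the paired analysis, the replicate block changed no call between genotypes. For time contrasts the samples share only a number (same-number r -0.0455 to 0.393, different-number r -0.356 to 0.297), and the replicate block raised the calls in sob3-6 to 2 for ZT9 against ZT4 (adding AHL25, adjusted p = 0.0354), to 5 for ZT24 against ZT9 (adding AHL22, 0.0474) and to 4 for ZT24 against ZT4 (adding AHL22, 0.0129, and ESC, 0.0480). Members that were not called changed sign: AHL22 at ZT4 was at -0.0176 with edgeR and -0.0132 with DESeq2. On leaving out 1 library, the log2 difference ranged from -0.345 to 0.164 for AHL18 at ZT4 and from -0.593 to 0.0866 at ZT24, from -0.165 to 0.0101 for AHL27 at ZT9, from -0.0935 to 0.193 for AHL22 at ZT4 and from -0.283 to 0.0944 at ZT9, from -0.0486 to 0.352 for AHL23 at ZT9, and from -0.123 to 0.124 for AHL24 at ZT4 and from -0.193 to 0.125 at ZT9. The cause was not tested. A count of single members covered 49 results: the genotype contrasts of every member and the time contrasts called in the main fit. Of their fits, 456 of 466 with all libraries and 247 of 294 with 1 library left out kept direction and side of the threshold. Of the rest, 8 and 33 fits lost a call, and 2 and 14 changed sign. Uncalled contrasts have no call to lose, so the pooled count overstates how steady the calls were. Uncalled time contrasts and interactions are outside this count, so the calls added by the replicate block do not enter it. Scaling moved the split of all calls between genotypes: at ZT4 1198 transcripts were higher and 679 lower, against 970 and 912 with DESeq2, and at ZT9 1700 and 1175, against 1296 and 1394. AHL18, at 2 to 13 reads per library, is limited by depth.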
